A study of Mus musculus with 18 samples.

Results

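The LPS response of Irf3-knockdown adipocytes was measured by RNA sequencing in 6 of the 18 libraries of the series. The cells were 3T3-L1, a mouse fibroblast line, differentiated into adipocytes at passage 15. All 6 libraries come from mature adipocytes transduced for 6 days with a lentivirus carrying a short hairpin RNA against Irf3. In 3 of them, called shIrf3, no lipopolysaccharide was given. In the other 3, called shIrf3 with LPS, the cells then received LPS for a further 6 days, with LPS-containing medium renewed on alternate days. Libraries were assigned to groups by their labels. Another 6 libraries, from cells with a hairpin against luciferase without LPS (shLuc) or with LPS (shLuc with LPS), were used only to ask whether the response differed in control cells. The length of LPS treatment is stated for the knockdown cells and not for shLuc with LPS. The sources used here give neither the LPS dose nor whether untreated cells were cultured for the same further days. The effects of LPS and of added days in culture therefore cannot be told apart. Separate cultures are not stated for the 3 replicates of a group, so p-values cover the spread among these libraries alone, and that spread may be technical.

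LPS is a component of the outer membrane of Gram-negative bacteria and is sensed by Toll-like receptor 4, which adipocytes carry. The receptor signals through the adaptor MyD88 to NF-kB, which drives cytokine, chemokine and acute phase genes, and through the adaptor TRIF to the kinase TBK1 and the transcription factor IRF3, which drives interferon-beta and antiviral genes. In cultured adipocytes, sustained inflammatory signalling is known to lower genes of lipid storage and insulin action. All cells compared here carried the hairpin against IRF3, with and without LPS. The comparison therefore reads the response to LPS in cells given that hairpin, and how far it lowered IRF3 is not reported here.

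Rows of the deposited table carry UCSC known-gene identifiers, which the files do not pair with gene names. Single gene models are therefore named by identifier, with mm9 coordinates, and groups of them are described by position, level and structure. For the same reason the count of Irf3 itself, the check of the knockdown, is not reported here, and neither are adipocyte markers or markers of other cell types.

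The 6 libraries held from 23749441 to 31667860 counts and separated by treatment. The first principal component of log2 expression held 60.0% of the variance. It placed the 3 shIrf3 libraries between -25.5 and -20.7 and the 3 libraries with LPS between 21.5 and 25.6. In both groups every pair of replicates differed by more than counting noise (chi-square divided by its degrees of freedom, 3.56 to 8.17), so each library counted as 1 sample. The biological coefficient of variation, the spread between replicates beyond counting noise, was 0.0510.

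LPS moved a large number of gene models by small amounts and a smaller number by large ones, and the large changes were mostly increases. Of 14436 gene models tested, 1323 were higher with LPS (9.16% of those tested) and 1567 were lower (10.9%). Gene models that changed at least 2-fold numbered 210 higher (1.45%) and 62 lower (0.429%). At least 4-fold there were 58 higher and 3 lower, and at least 16-fold there were 17 higher and 0 lower. Gene models that rose had a median log2 fold change of 0.44, and those that fell one of -0.26. A change of less than 1.5-fold made up 64.9% of the higher calls and 85.9% of the lower calls. A call here means a Benjamini-Hochberg adjusted p under 0.05 in the quasi-likelihood test of edgeR. In RNA from whole cultures, fewer cells of a type and less RNA per cell cannot be told apart.

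The groups rarely overlapped among the called gene models. The calls rest on these same libraries, so this follows largely from the test and adds no support. All 3 libraries with LPS lay above all 3 without it for 1303 of the 1323 higher calls, against 17.8% of all gene models tested. All 3 lay below for 1534 of the 1567 lower calls, against 19% of those tested. Higher calls made up 45.8% of all calls. When libraries were scaled by their totals alone, they made up 62.5% (1765 higher and 1058 lower). Fitted together with the shLuc libraries, from 12 libraries, the counts were 624 higher and 575 lower.

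**Figure D1:**
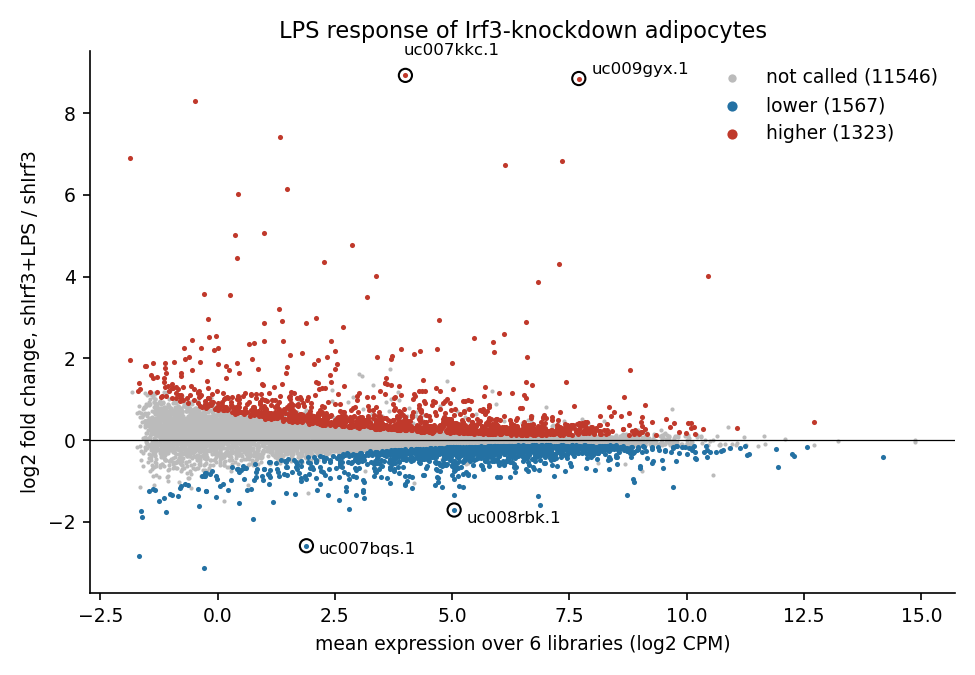
Each point is 1 of 14436 gene models, with its mean level over the 6 libraries (log2 CPM) on the x axis and its log2 fold change with LPS on the y axis. Red points were called higher, blue points lower and grey points not called, and the 4 named gene models are circled. The higher calls reach 8.92 on the log2 scale and the lower calls -3.13.

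The largest increase among gene models with at least 5 CPM (the count relative to the scaled size of its library) in the higher group was that of uc007kkc.1, a 27-exon gene model with 3990 exon bases on chromosome 11 (78734361 to 78773626). It had 0, 2 and 3 counts in the 3 shIrf3 libraries and 1003, 827 and 760 counts in the 3 libraries with LPS. Scaled to depth, it stood at 32.1, 32.2 and 31.7 CPM with LPS and at most at 0.113 CPM without. The gene model was thus close to undetected in all 3 untreated libraries and at nearly the same level in all 3 treated ones. The ratio of the summed counts, scaled by library totals, was 537, with a 95% counting interval from 230 to 1655. The fitted log2 fold change was 8.92 (edgeR adjusted p = 5.18e-18). Its standard error, derived from the F value, was 0.19. With 5 untreated counts that is smaller than counting error alone, so the counting interval is the better guide.

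The next largest increase was that of uc009gyx.1, with 5 exons and 601 exon bases on chromosome 7 (53967368 to 53971046). It stood at 1.08, 0.778 and 0.868 CPM in the shIrf3 libraries and at 414.2, 455.1 and 375.7 CPM with LPS. The 2 sets of libraries were far apart, with means of 0.910 ± 0.157 and 415.0 ± 39.7 CPM (SD, n = 3). The response measured 8.84 ± 0.11 in log2 units (SE, edgeR adjusted p = 1.15e-17). Ranked by level per exon length among the 14436 gene models, it was at place 10369 without LPS and at place 31 with LPS. The gene model that followed in the same ranking of increases had a log2 fold change of 6.83.

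Decreases were smaller. The largest was that of uc007bqs.1, with 2 exons on chromosome 1 (79431244 to 79436665), by the same ranking. It stood at 6.62, 6.68 and 5.77 CPM in the shIrf3 libraries and at 0.801, 0.935 and 1.504 CPM with LPS. Its mean was 5.89-fold lower with LPS (log2 fold change -2.58 ± 0.19, SE, edgeR adjusted p = 2.55e-09). Gene models were named only if their groups did not overlap. The gene model uc008rbk.1 on chromosome 3 (113733458 to 113926602) stood at 44.5, 55.1 and 51.9 CPM without LPS and at 16.7, 11.1 and 18.5 CPM with it. Its log2 fold change was -1.71 ± 0.20 (SE, edgeR adjusted p = 0.00532). With the replicate number as a block the call was lost (-1.72, edgeR adjusted p = 0.0615). It has 71 exons, listed on both strands, and reads of overlapping genes may enter its count. Next in the ranking of decreases came a gene model at -1.68, close to the last one named.

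**Figure D2:**
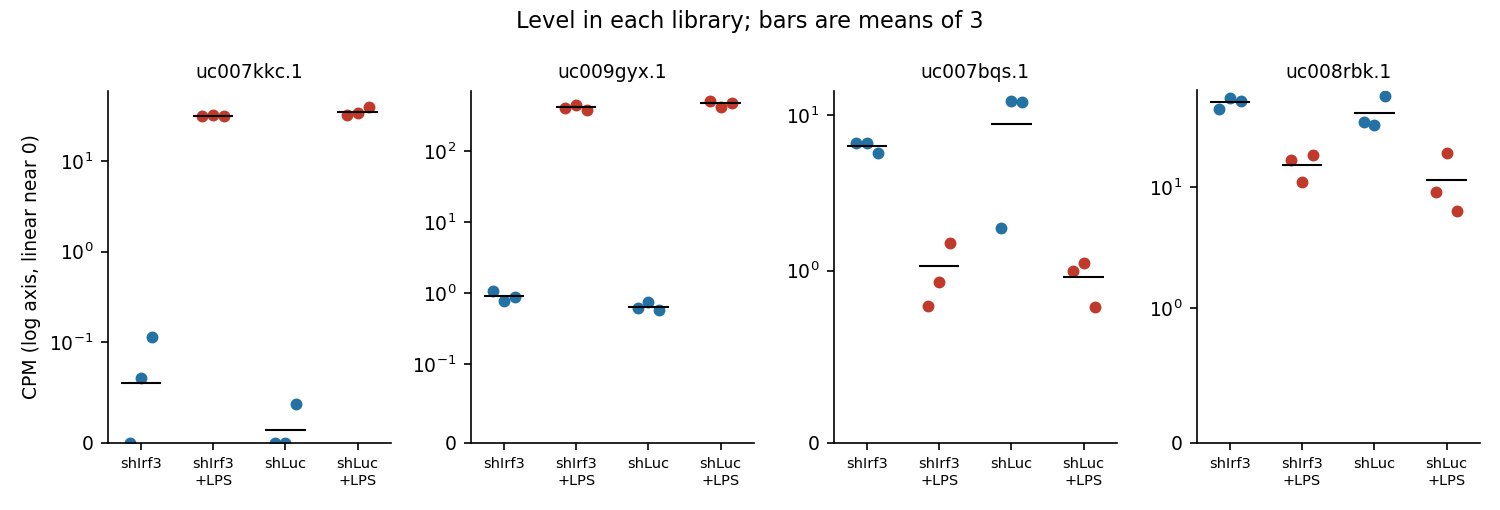
Level of the 4 named gene models in each library, in CPM scaled over the 12 libraries of both hairpins, on a log axis that is linear near 0. Each point is 1 library, blue without and red with LPS, and bars are the means of 3. The shIrf3 and shIrf3 with LPS points do not overlap in any of the 4 panels, because the gene models were chosen by that rule.

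Summed in scaled CPM, the lower calls outweighed the higher ones. The 1323 higher gene models together held from 7.44% to 7.80% of the scaled counts in the shIrf3 libraries and from 10.1% to 10.3% with LPS. The 1567 lower ones held from 24.1% to 24.3% without LPS and from 19.5% to 19.99% with it. These sums describe the called gene models and test nothing, since the calls chose them. Among the higher ones, 10 gene models made up 29.7% of the summed gain in CPM. Among the lower ones, 10 made up 29.7% of the summed loss, and 1 of these, on chromosome M, made up 12.2%. The balance can depend on the scaling. By library totals alone 1765 gene models were called higher and 1058 lower, and the sums were not taken with that scaling.

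Higher and lower calls occurred at all levels of expression, and the share of lower calls was greater at high levels. The tested gene models were divided into 5 groups of equal size by mean RPKM over the 6 libraries, a level per exon length. In the lowest group (up to 0.783 RPKM) 7.76% were called higher and 2.67% lower. In the highest group (from 22.1 RPKM) 8.42% were called higher and 19.9% lower. The share of lower calls thus rose with level, from group to group, while that of higher calls was largest in the second group, at 12.7%. The median standard error of the log2 fold change fell from 0.28 in the lowest group to 0.05 in the highest, so smaller changes pass the test at high levels.

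Changes of at least 2-fold had another distribution. They were called higher for 3.25% of the lowest group and 0.693% of the highest, and lower for 1.143% and 0.173%. Increases of this size outnumbered decreases in each of the 5 groups, with 94 against 33 in the lowest and 20 against 5 in the highest.

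**Figure D3:**
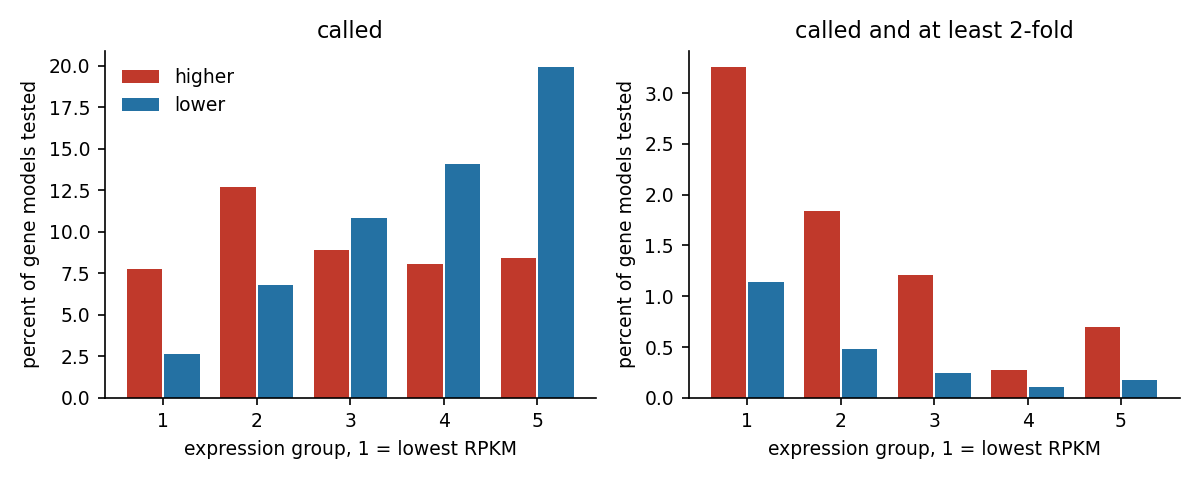
Share of tested gene models called higher (red) or lower (blue) with LPS in 5 groups of increasing RPKM, for all calls (left) and for calls of at least 2-fold (right). The y axes are percent of the gene models in the group. Lower calls reach 19.9% in the highest group, whereas calls of at least 2-fold are most frequent in the lowest group, at 3.25% higher and 1.143% lower.

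Gene models that rose often lay next to each other in the genome. Of the higher calls of at least 2-fold that have a following tested gene model on the chromosome, 31 of 209 (14.8%) were followed by another such call, where 1.45% of all tested gene models were. For decreases of at least 2-fold the number was 1 of 62 (1.61%), where 0.429% of all tested gene models were such calls. Over all calls whatever their size, 18.5% of higher calls were followed by a higher call (9.16% of those tested) and 15.0% of lower calls by a lower call (10.9%). Neighbours can be copies of one gene, whose reads the authors' counting could lose or split, so values of single members of such groups are uncertain.

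Runs were then listed in which at least 3 consecutive tested gene models, no more than 200000 bases apart, were all called in the same direction and at least 1 of them changed 2-fold. There were 19 runs of higher calls with 80 gene models, 44 of them at least 2-fold higher, on 12 chromosomes. There were 2 runs of lower calls with 6 gene models. The calls define these runs, so their counts are a description. In 7 of the higher runs at least 3 members rose 2-fold or more, and these are described next by their positions on mm9.

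A run on chromosome 11 (81849079 to 81930301) held 4 gene models of 3 exons each, and all 4 rose at least 2-fold. Their summed level was 56.1, 48.2 and 51.4 CPM in the shIrf3 libraries and 288.9, 286.0 and 316.0 CPM with LPS. The log2 fold changes of the 4 members lay between 1.87 and 2.88. The first of them in the order of the chromosome rose from 22.9 ± 2.58 to 167.9 ± 12.5 CPM and the second from 21.9 ± 0.754 to 97.8 ± 4.10 CPM (SD, n = 3). All 3 treated libraries lay well above all 3 untreated ones in this run.

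A second run on the same chromosome (83401388 to 83566148) also had 4 members, and its summed level went from 24.7, 23.3 and 24.2 CPM to 55.5, 55.6 and 63.0 CPM. Its members were less alike. The first rose from 19.8 ± 1.23 to 38.2 ± 2.52 CPM (SD, n = 3), and the last from 4.10 ± 0.524 to 16.9 ± 1.92 CPM. The second member, a single-exon gene model, had 0 counts over the 3 shIrf3 libraries and 117 with LPS, at least 40.4-fold higher when 3 counts over the untreated group are taken as the floor.

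On chromosome 7 (53941478 to 54110997) 8 consecutive gene models rose, and uc009gyx.1 is the second of them. The 4 with large changes sat side by side within the run, with log2 fold changes of 8.84, 2.51, 7.41 and 5.06 in the order of the chromosome. Apart from uc009gyx.1 these were low, at 1.502 ± 0.213, 4.98 ± 0.232 and 3.85 ± 0.795 CPM with LPS (SD, n = 3). The other 4 members, on either side, were called at log2 fold changes between 0.22 and 0.51. Large and small increases were therefore found within 169.5 kb of each other.

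On chromosome 12 (105385117 to 105652539) all 6 members of a run rose, 5 of them at least 2-fold. The summed level was 9.9, 11.03 and 11.6 CPM in the shIrf3 libraries and 46.6, 42.7 and 41.6 CPM with LPS. The 4 inner members had 6, 36, 6 and 3 counts over the shIrf3 libraries and 205, 748, 447 and 221 with LPS. The members at places 2 and 3 of the 6 start at the same base and so overlap. The last of the 6 rose from 6.82 ± 0.675 to 17.8 ± 0.601 CPM (SD, n = 3).

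A run on chromosome 5 (105507413 to 105775491) held 5 gene models of 11 or 12 exons, and all 5 rose at least 2-fold. Its summed level went from 45.3, 70.0 and 55.2 CPM to 134.0, 135.3 and 151.0 CPM, with more spread between the untreated libraries than in the runs above. The log2 fold changes ran from 1.13 to 3.22. The largest was that of the member at place 3, with 39 counts over the shIrf3 libraries and 358 with LPS. The members at places 3 and 4 start at the same base and so overlap. Without shIrf3 replicate 3 only 3 of the 5 members were called. There were 4 in the replicate block fit and without shIrf3 replicate 1, shIrf3 with LPS replicate 1 or shIrf3 with LPS replicate 2.

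The remaining 2 of the 7 runs lay on chromosomes 1 and 6. The run on chromosome 1 (175560990 to 175844310) went from 36.2, 45.1 and 34.6 summed CPM over 5 members to 82.3, 76.5 and 87.3 CPM. Its log2 fold changes ran from 0.848 to 1.397. The first member, 1 of the 3 at least 2-fold higher, had only 14 counts without LPS and 37 with it. In DESeq2, with 12 libraries in the fit and without any 1 library other than shIrf3 replicate 2, 4 of the 5 members were called. The run on chromosome 6 (129781172 to 130336892) had 4 members that rose at least 2-fold, but their summed level was only 1.3, 1.7 and 1.6 CPM without LPS and 5.3, 4.1 and 5.9 CPM with it. In that run 8 further gene models had too few counts to be tested, and 2 of the 4 members stayed in the test when at least 1 CPM in 3 libraries was asked for.

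**Figure D4:**
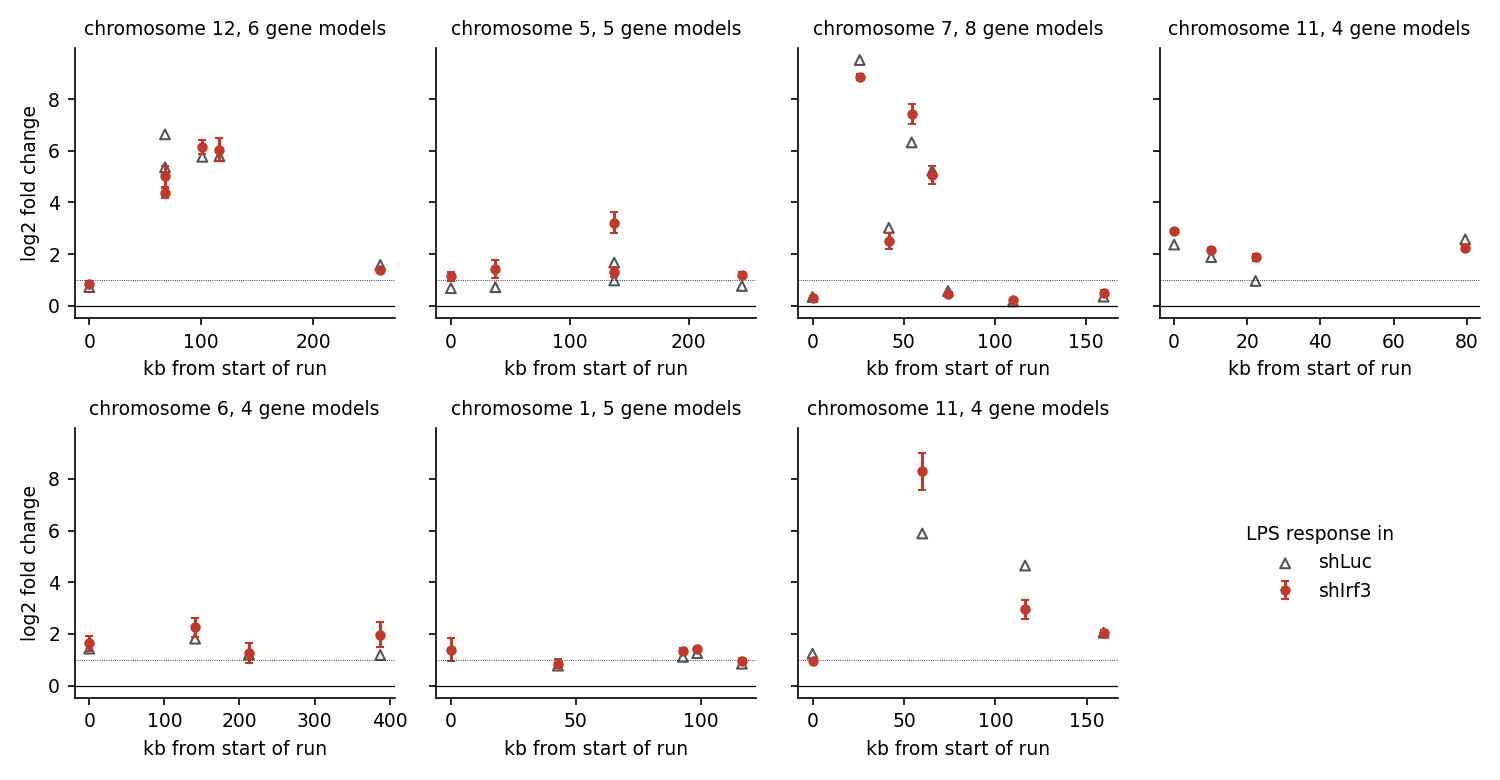
Log2 fold change with LPS of each gene model in the 7 runs of neighbouring higher calls with at least 3 members of 2-fold or more, against its distance in kb from the start of the run. Red points with SE bars are the shIrf3 libraries and open triangles the shLuc libraries. The dotted line marks 2-fold. Members at 0 or few counts without LPS, such as the second of the chromosome 11 run at 8.29, have fitted values that are no bound. Their SE bars can be too short.

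The control cells give a measure of these runs that did not enter their choice. Of the 80 gene models in runs of higher calls, 79 were tested in the 6 shLuc libraries. Of these, 76 had a higher level with LPS there and 42 were called higher (53.2%), where 2.51% of all gene models tested in shLuc were. The closer reference is the higher calls of the knockdown cells, in runs or not. Of those, 322 of 1312 tested in shLuc were called higher there, and 121 of 199 among those at least 2-fold higher. Of the 80 run members 44 rose at least 2-fold, so the runs mix sizes, and both references include run members. Whether the runs differ from other higher calls of like size was not tested. All 6 members of the chromosome 12 run and all 4 members of each chromosome 11 run were among those called. Fewer were called in the other runs described, with 5 of 8 on chromosome 7, 2 of 5 on chromosome 5, 2 of 4 on chromosome 6 and 3 of 4 tested on chromosome 1.

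Most tested gene models of the mitochondrial genome were slightly lower with LPS in the knockdown cells. That genome encodes subunits of the respiratory chain and its own ribosomal and transfer RNAs. Gene models on chromosome M held 6.53%, 7.17% and 6.64% of all counts in the shIrf3 libraries and 5.82%, 6.39% and 6.10% with LPS, so all 3 treated libraries lay below all 3 untreated ones. Of all tested gene models 10.9% were lower, and 19.9% in the highest expression group, which covers the levels of chromosome M. Of the 7 gene models of chromosome M tested, 5 were lower and 0 higher. The largest change was at bases 5327 to 6938, where the level fell from 21385 ± 871 to 15935 ± 361 CPM (SD, n = 3), or -0.42 ± 0.05 in log2 units (SE, edgeR adjusted p = 8.96e-06). This was also the largest loss in CPM of any lower call, 5449 CPM or 12.2% of the summed loss.

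The other 4 called gene models of chromosome M had log2 fold changes from -0.34 to -0.16. Those not called lay closest to the start of the chromosome, at bases 70 to 852 (log2 fold change 0.07) and 1094 to 3703 (-0.05). The latter held the most CPM of the 7, with 30641 ± 3506 without LPS and 29501 ± 3035 with it (SD, n = 3). With library totals as the only scaling 4 of the 7 were lower, without shIrf3 replicate 3 there were 3, and in the fit from 12 libraries 1. In the control cells, chromosome M held 14.2%, 2.88% and 5.19% of counts in shLuc and 4.21%, 4.52% and 4.37% in shLuc with LPS. Those groups overlap, and the untreated spread is larger than the shift in the knockdown cells.

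The response to LPS was also measured in shLuc cells, to ask whether it differed between the hairpins. Whether their LPS treatment had the same length is not stated, so hairpin and length of treatment cannot be told apart in this comparison. Fitted from their own 6 libraries, 366 gene models were higher with LPS in shLuc (2.51% of 14585 tested) and 302 lower (2.07%), and these calls share no library with those of the knockdown cells. Of the 366, 322 (88.0%) were also called higher in the knockdown cells, where 9.16% of all gene models were, and these made up 24.3% of the 1323. Of the 302, 245 (81.1%) were also called lower, where 10.9% of all were, and these made up 15.6% of the 1567. Of the 1323, 1312 were tested in shLuc and 1175 had a higher level with LPS there. Of the 1567, 1558 were tested and 1453 had a lower level. The biological coefficient of variation was 0.117 in shLuc, against 0.0510 in the knockdown cells. The absence of a call in shLuc therefore does not show the absence of a response. No gene model called in shLuc was called in the opposite direction in the knockdown cells, against 1 in DESeq2, 1 in limma-voom, 2 without shLuc replicate 1 and 1 without shLuc replicate 2.

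The sizes of the changes were set side by side. Among the 132 gene models called at least 2-fold higher in shLuc and tested here, the median log2 fold change was 1.65 in shLuc and 1.72 in the knockdown cells, and 132 of 132 were higher in both. Among the 66 called at least 2-fold lower, it was -1.28 in shLuc and -0.95 in the knockdown cells, and 65 of 66 were lower in both. Since shLuc values chose these gene models, their shLuc medians can be too large. Across the 14285 gene models tested in both, Pearson's r between the 2 sets of log2 fold changes was 0.748 and Spearman's rho was 0.524, where gene models are not independent and the libraries share the sequencing method.

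**Figure D5:**
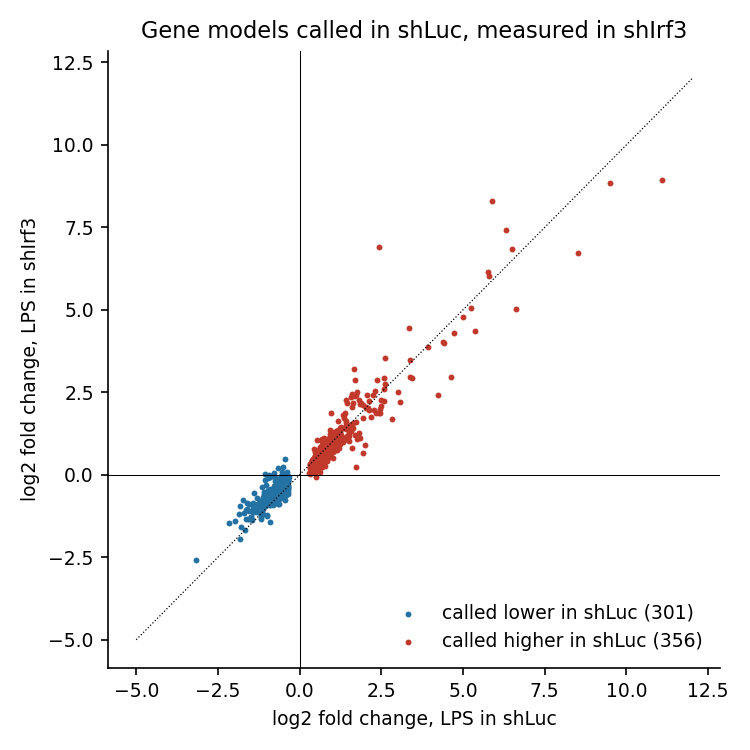
Gene models called in the 6 shLuc libraries and tested in both cell types, with the log2 fold change with LPS in shLuc on the x axis and in shIrf3 on the y axis. Red points were called higher in shLuc (356) and blue points lower (301), and the dotted line marks equal changes. Of these, 355 red points lie above 0 and 294 blue points lie below 0 on the y axis.

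For the 4 named gene models no difference in response passed the test. The gene model uc009gyx.1 stood at 0.613, 0.738 and 0.571 CPM in shLuc and at 509.4, 424.8 and 474.5 CPM in shLuc with LPS. Its LPS response was smaller in the knockdown cells by 0.66 ± 0.25 (SE) on the log2 scale (edgeR adjusted p = 0.782). In shLuc with LPS, uc007kkc.1 reached 32.4, 33.8 and 39.5 CPM. With 1 or 0 counts in each untreated shLuc library, the difference of its responses could not be measured closely (-2.15 ± 1.07, SE, edgeR adjusted p = 0.884). The gene model uc007bqs.1 stood at 1.87, 12.4 and 12.1 CPM in shLuc, where replicate 1 was close to the levels with LPS of 0.994, 1.11 and 0.789 CPM. For uc007bqs.1 and uc008rbk.1 the difference was 0.59 ± 0.98 and 0.11 ± 0.55 (SE), each with an edgeR adjusted p of 0.997.

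A test of the difference itself, the interaction of hairpin and LPS over 12 libraries, called 0 of 14970 gene models (0%) in edgeR's quasi-likelihood test. At an unadjusted p under 0.05 there were 848, or 5.66% of those tested, and the smallest adjusted p was 0.0513. DESeq2 called 10 higher and 5 lower in the knockdown cells, limma-voom 0 and 0. The median standard error of this difference was 0.15 on the log2 scale, against 0.08 for the LPS response of the knockdown cells alone. On simulated counts the test recovered 41.8% of differences of 1.5-fold, 67.2% of 2-fold and 87.9% of 4-fold. The simulation gave all groups the same spread between replicates, unlike the data, so these rates need not hold here.

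The untreated shLuc libraries differed most among themselves. Chi-square divided by its degrees of freedom was 55.9, 199 and 349.9 for their 3 replicate pairs, and chromosome M held 14.2%, 2.88% and 5.19% of their counts. Without shLuc replicate 1 the interaction had 4 gene models higher and 11 lower, and without shLuc replicate 2 there were 14 and 2. The higher calls shared with shLuc numbered 402 and 450 without these libraries, and between 173 and 197 without shLuc replicate 3 or any single shLuc library with LPS. The shared lower calls numbered 321 and 396 without shLuc replicates 1 and 2, and between 92 and 142 without the other 4 libraries in turn.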

How the data were processed

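Libraries were made from 70 ng of total RNA after ribosomal RNA removal with a TruSeq RNA v2 kit, per the labels' protocols. That kit keeps no strand information. The submitters' processing notes name build mm9, featureCounts 1.4.6, TopHat2 2.0.14 and bcl2fastq 2.17.1.14, and also edgeR, SAMtools 0.1.19 and Picard 2.2.4. Settings are not given in the sources used. The authors deposited raw counts, whole numbers for each gene model. Exon lengths in bases are another column, per the file headers. Of 27473 gene models, 1497 list exons on both strands. The annotation at hand is for GRCm38, and 0 identifiers occurred in it or in the name tables, so gene lists and markers chosen by symbol give no result.

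Groups came from the sample titles. The 6 libraries were tested with edgeR 4.0.16 in R 4.3.3 (filterByExpr, TMM, glmQLFit with robust estimation, glmQLFTest, Benjamini-Hochberg adjustment, threshold 0.05). The interaction was fitted from 12 libraries and the control response from its own 6. The standard error is the size of the log2 fold change over the root of its F value. At few counts in a group it can be smaller than counting error. CPM values are scaled by TMM, and RPKM divides them by exon length in kb. The filter left 14436 gene models with 99.9% of the counts. Members, lists and the definition of runs were chosen with earlier results of these data known. The named gene models are the first 2 per direction by fitted log2 fold change among called ones whose groups do not overlap and whose higher group averages at least 5 CPM. The ratio interval is the exact (Clopper-Pearson) 95% interval of the summed counts; it and the floor of 3 counts cover counting error only.

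On simulated counts with 200 gene models changed, the 6-library test, over 14436 gene models, found 70.1% of the 1.5-fold, 86.6% of the 2-fold and 100% of the 4-fold changes, while 24 of its 195 calls (12.3%) fell on unchanged gene models. The interaction test, over 14970 gene models, recovered 41.8%, 67.2% and 87.9%, with 5 of 136 calls (3.68%) unchanged. For the control response, over 14585, these were 49.3%, 83.6%, 97.0% and 13 of 166 (7.83%). In each simulation all groups had the same spread between replicates, whereas untreated shLuc libraries varied more in the data. Alternatives tried were limma-voom (limma 3.58.1), DESeq2 1.42.0, scaling by library totals or RLE, other filters, no chromosome M, the replicate block, more libraries in the fit, and each library left out in turn.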

Additional observations from a re-analysis of the deposited data

How the results depend on the processing

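For LPS in the knockdown cells, the counts of 1323 higher and 1567 lower moved by more than 1.5 times with 12 libraries in the fit (624 and 575), and the 62 lower by at least 2-fold were 40 when at least 1 CPM in 3 libraries was asked for. Leaving out each library in turn gave from 946 to 1205 higher and from 1146 to 1505 lower, and from 190 to 246 and from 51 to 78 at least 2-fold. The interaction, with 0 calls, had 10 higher and 5 lower in DESeq2, 2 and 1 with no low-count filter, 1 lower with library totals and 1 lower without chromosome M, and from 0 to 14 higher and from 0 to 11 lower with single libraries left out. The calls shared with shLuc ran from 173 to 450 higher and from 92 to 396 lower without single shLuc or shLuc with LPS libraries, and the lower ones were 140 with library totals, alternatives chosen after seeing the data. The cause of these moves was not tested. With the replicate number as a block, 1387 gene models were higher and 1674 lower. Same-numbered libraries correlated in their deviations from the group means at 0.027, 0.015 and 0.015, each library best with its own number. All these values were close to 0, and shIrf3 replicate 3 with shIrf3 with LPS replicate 2 gave 0.012. They do not settle whether replicates were paired. The call of uc008rbk.1 was not made in the block fit (-1.72, edgeR adjusted p = 0.0615). It held in the other 14 settings, with adjusted p down to 2.12e-12 in DESeq2. The calls of the other 3 named gene models held in all 15 settings. Low counts limit the precision, with a median standard error of 0.28 in the lowest expression group and 0.05 in the highest.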

Other observations

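The exon structure of the called gene models is given as a description, with no test. Those at least 2-fold higher had a median exon length of 2402.5 bases and 7 exons, against 3334 bases and 9 exons over all gene models tested. Those at least 2-fold lower had a median of 3682.5 bases and 10 exons. Gene models with exons on both strands, which can hold reads of overlapping genes, were 5 of the 210 at least 2-fold higher (2.38%) and 7 of the 62 at least 2-fold lower (11.3%), against 9.13% of those tested.

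Some gene models were close to undetected without LPS. Of the higher calls, 10 had at most 9 counts summed over the 3 shIrf3 libraries. With LPS 8 of these reached at least 1 CPM and 2 at least 5 CPM, with a median of 2.62 CPM. In 2 of the 10 the untreated libraries held 0 counts, and these were at least 15.2-fold and at least 40.4-fold higher with LPS, taking 3 counts over the untreated group as the floor.

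Across the autosomes and chromosome X, the share of tested gene models that were at least 2-fold higher ran from 0.544% on chromosome 13 to 2.59% on chromosome 19, with 1.45% over all. These shares are descriptions, and runs of neighbours enter them more than once.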
